A study of Mus musculus with 4 samples.

Results

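The macrophage enzymes that turn arginine into nitric oxide or ornithine, take citrulline back towards arginine, open the tryptophan ring and make itaconate were examined for H3K27me3 at their genes. The 9 genes were chosen by name, as Nos1, Nos2, Nos3, Arg1, Arg2, Ass1, Ido1, Ido2 and Acod1, out of 27095 gene windows in the deposited count table, and all 9 were found by their Entrez identifiers. The libraries were made by Cut&Tag, in which a transposase tethered through an antibody cuts and tags the chromatin around a histone mark, from alveolar macrophages, phagocytes that live in the airspaces, sorted from C57BL/6 mouse lung. The 2 Suz12 cKO libraries came from lethally irradiated C57BL/6-Ly5.1 hosts given 90% Suz12 cKO Ly5.2 marrow with 10% wt Ly5.1 marrow. The 2 wild-type libraries came from the same kind of host given 90% wt Ly5.2 marrow with 10% wt Ly5.1 marrow, so both groups were irradiated chimeras that carried wild-type competitor marrow. The sources used here do not give the driver of the conditional deletion, the age of the mice or whether the sort removed Ly5.1 cells, and a share of wild-type cells in the cKO libraries was not tested.

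Suz12 is an obligate subunit of PRC2, the complex that places H3K27me3, a mark of repressed chromatin. Nitric oxide synthases and arginases compete for arginine in macrophages: inducible nitric oxide synthase is a classical product of cells activated by interferon gamma and bacterial products, and Arg1 a classical product of mouse cells activated by interleukin-4. Indoleamine dioxygenases break down tryptophan along the kynurenine route, and Acod1 converts the citrate cycle intermediate cis-aconitate into itaconate. Several of these genes, Nos2, Arg1, Ido1 and Acod1 among them, are silent in resting cells until they are induced.

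Values were read counts over a window for each gene, inferred from the window lengths to be the gene with 3 kb on each side. The lengths fit this exactly for 11525 of 25204 matched windows. Library totals were 3331138 and 3567282 counts in cKO, against 2592297 and 2142175 in wild type. CPM are counts scaled to library size with TMM factors, and CPM per kb divides them by the window length, so levels of different genes are compared only per kb. All CPM are shares of a library, and a loss of the mark from all genes alike would not show in them. For genes of alveolar macrophage identity (15 of 16 found) the median level was 0.228 CPM per kb in cKO and 0.143 in wild type, against 0.213 and 0.219 over all windows. Lung epithelial genes stood at 1.83 and 1.73, and fibroblast and muscle genes at 3.24 and 2.88, so genes of other lineages carried more of the mark than those of the labelled cell type in both genotypes.

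Among the 9 genes the mark was strongest at Nos2 and weakest at Arg1, and Nos2 was the gene called as changed, with 1.31 times the wild-type signal in Suz12 cKO macrophages. Of 8 genes that passed the count filter, 1 gained H3K27me3 and 0 lost it by edgeR's quasi-likelihood test at an adjusted p below 0.05. At an unadjusted p below 0.05, 2 were higher and 0 lower, where 10.3% of all genes tested were higher and 8.26% lower. DESeq2's Wald test called 1 gained and 0 lost. Across all 16752 genes tested, edgeR called 6.42%, with 4.46% gained and 1.96% lost, and DESeq2 called 1.93% as gained. The median log2 fold change of the 8 was 0.04, against -0.01 over all genes tested, with 4 positive and 4 negative.

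Levels spread widely. Averaged over the 4 libraries, Nos2 had 4.91 CPM per kb, Ido2 2.33, Nos3 2.31, Ido1 1.58 and Nos1 1.33. Acod1 had 0.824, Ass1 0.784, Arg2 0.297 and Arg1 0.156. The libraries of Nos2 lay above those of every other member, and so did the libraries of Nos3 lie above those of Ido1, those of Nos1 above those of Acod1, and those of Ass1 above those of Arg2. Ido2 and Nos3 overlapped between libraries, as did Ido1 and Nos1, and Acod1 and Ass1, and the order within each of these couples changed between libraries. Arg2 and Arg1 overlapped as well, with 0.24 CPM per kb in the lowest library of Arg2 and 0.252 in the highest of Arg1. Their order was the same within each library. In each of the 4 libraries Nos2 ranked highest, Arg2 eighth and Arg1 lowest.

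**Figure D1:**
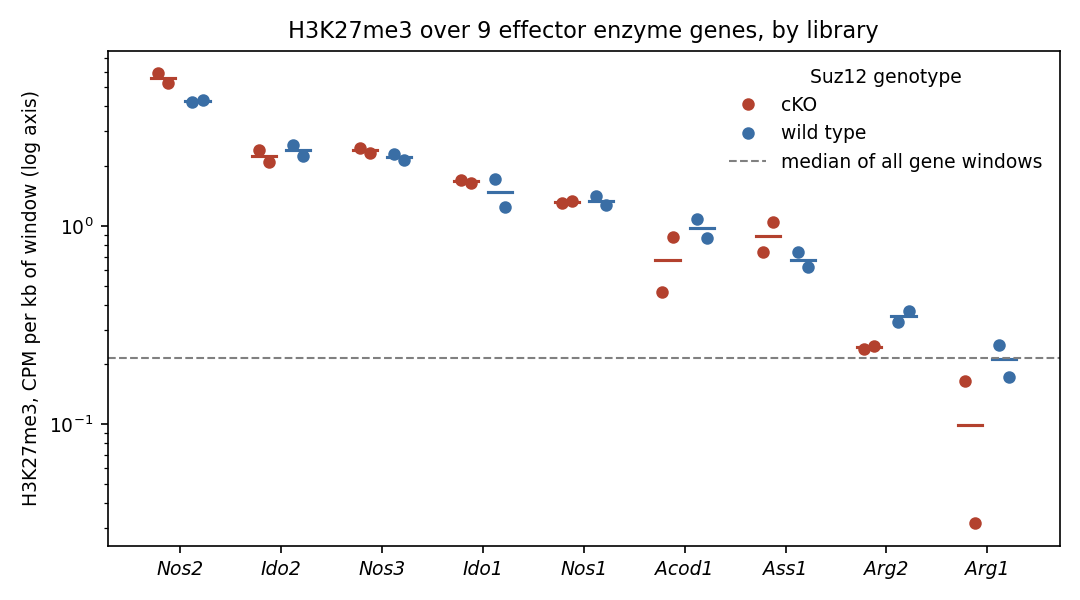
H3K27me3 level in CPM per kb of window (vertical log axis) at the 9 genes, with 1 point for each library, short lines for the mean of 2 libraries, cKO left of wild type for each gene, and a dashed line at the median of all gene windows. Nos2 stands above the other genes in every library, at 5.88 and 5.28 in cKO and 4.20 and 4.29 in wild type, while Arg1 lies at or below the dashed line except in wild-type library 1 (0.252).

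Nos2, which encodes the inducible nitric oxide synthase, lies on chromosome 11 at 78920787 to 78960226 (mm10). Its window held 880 and 826 counts in cKO and 496 and 430 in wild type, or 266 and 239 CPM in cKO and 190 and 194 CPM in wild type. Both cKO libraries stood above both wild-type libraries. The log2 fold change was 0.39 ± 0.10 (SE), with a 95% interval of 0.19 to 0.59 and an adjusted p of 0.00506 by edgeR. The window ranked at the 96.5th percentile of all windows per kb in cKO and at the 95.4th in wild type, so the gain came on top of an already high level. The call was lost without cKO library 1 (0.31, adjusted p = 0.259) and with TMM factors taken from the top decile of windows (0.29, adjusted p = 0.125). Of the Nos2 window, 7.1% is shared with that of Lgals9, and reads in such overlaps may go uncounted.

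**Figure D2:**
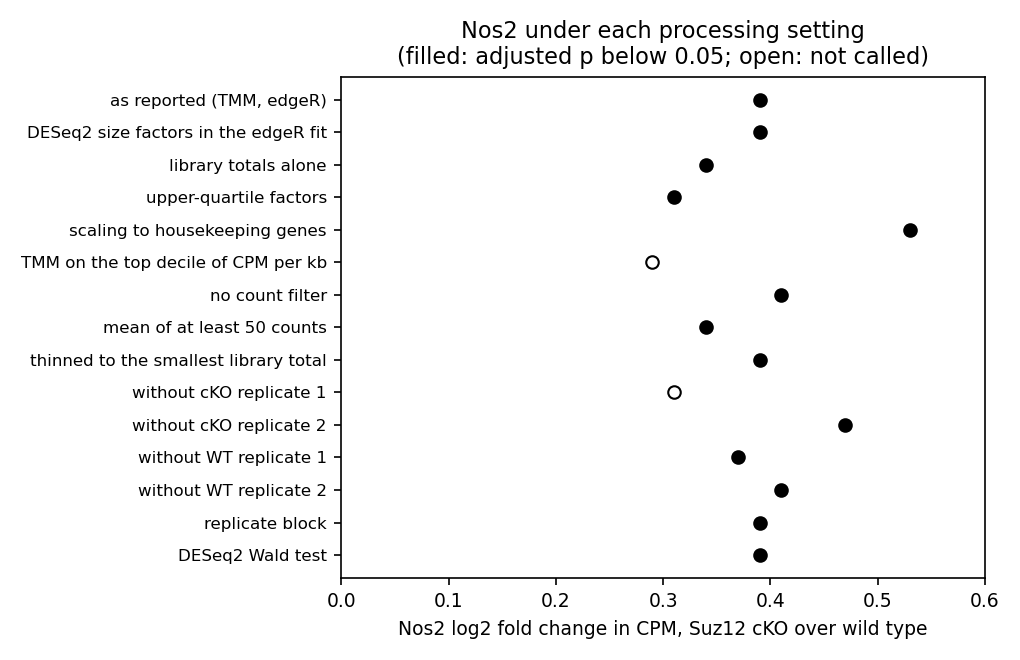
Nos2 log2 fold change in CPM, Suz12 cKO over wild type (horizontal axis), under each normalization, filter, test and left-out library (vertical axis), with filled dots for an adjusted p below 0.05. All values lie between 0.29 and 0.53, and the open dots are those without cKO replicate 1 (0.31) and with TMM on the top decile (0.29).

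Nos3, the endothelial synthase on chromosome 5 (24364816 to 24384474), ranked near the 90th percentile of windows (90.1 in cKO and 89.7 in wild type). It had 209 and 208 counts in cKO and 153 and 122 in wild type, or 63.2 and 60.2 CPM in cKO and 58.6 and 55.2 CPM in wild type. The groups did not overlap, yet the log2 fold change of 0.11 ± 0.15 (SE) had a 95% interval of -0.18 to 0.41 and an adjusted p of 0.763 by edgeR. Libraries of the 2 genotypes failed to overlap at 47.7% of all genes tested, with cKO higher at 24.1% and lower at 23.6%. The window of Atg9b takes up 24.5% of that of Nos3.

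Nos1, the neuronal synthase, also on chromosome 5 (117866839 to 117958840), had 397 and 427 counts in cKO and 342 and 260 in wild type. These were 120 and 124 CPM in cKO and 131 and 118 CPM in wild type, with overlapping groups. The log2 fold change was -0.04 ± 0.12 (SE, 95% interval -0.27 to 0.19, adjusted p = 0.924 by edgeR). Its window is long, and per kb it stood at 1.31 in cKO and 1.34 in wild type, below Nos3 and far below Nos2. The deposited Nos1 window is 693 bp longer than the gene in the reference table, in place of 6000 bp, so where it begins is uncertain.

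Nos2 was also read against the other members inside each library, which needs no scaling between libraries. Counts of Nos2 divided by those of Nos1 were 2.22 and 1.93 in cKO and 1.45 and 1.65 in wild type. Against Nos3 the ratio was 4.21 and 3.97 in cKO and 3.24 and 3.52 in wild type, and against Ido2 it was 2.18 and 2.26 in cKO and 1.48 and 1.71 in wild type. Nos2 held 40.1% and 37.3% of the counts of the 9 genes in cKO, against 30.9% and 34.3% in wild type. The cKO values lay above the wild-type values in each of these cases. Of the other ratios compared, Ksr1, a gene near Nos2, over Nos2 was higher in cKO (0.781 and 0.809) than in wild type (0.619 and 0.581). Ido2 over Ido1 was lower, at 3.77 and 3.41 in cKO and 3.95 and 4.83 in wild type. The exact two-sided permutation p over libraries was 0.333 for each of 6 ratios compared (adjusted p = 0.333), which is the smallest that 2 against 2 libraries can give, and the ratios were chosen after the values were seen.

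**Figure D3:**
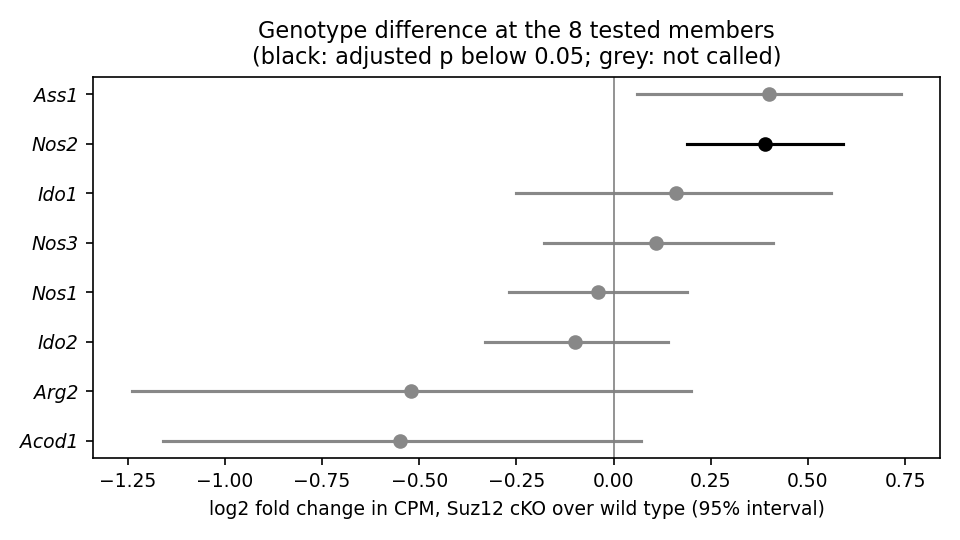
Log2 fold change in CPM, Suz12 cKO over wild type (horizontal axis), for the 8 tested genes, with dots for the estimate and lines for the 95% interval of the edgeR fit. The Nos2 interval, in black, runs from 0.19 to 0.59, and the intervals of Acod1 (-1.16 to 0.07) and Arg2 (-1.24 to 0.20), the genes with the fewest counts, are the widest.

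The arginases carried the least H3K27me3. Arg1, the cytosolic arginase on chromosome 10 (24915207 to 24927470), had 10 and 2 counts in cKO and 12 and 7 in wild type and fell below the count filter. These are 3.02 and 0.578 CPM in cKO and 4.60 and 3.16 CPM in wild type. Both cKO values were below both wild-type values, but the cKO libraries differed from each other by more than the group means of 1.80 and 3.88 CPM did. Scaled to library totals, the summed counts of 12 in cKO and 19 in wild type give a ratio of 0.433, with an exact binomial 95% interval of 0.192 to 0.941 that covers counting error only. With no count filter the edgeR log2 fold change was -1.10 (adjusted p = 0.491). Med23 shares 23.7% of the Arg1 window.

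Arg2, the mitochondrial arginase on chromosome 12 (79130788 to 79156301), had 25 and 27 counts in cKO and 27 and 26 in wild type. Counts were thus alike, but the cKO libraries were deeper, so the levels were 7.56 and 7.81 CPM in cKO against 10.3 and 11.8 CPM in wild type. The groups did not overlap, with cKO lower, and the log2 fold change of -0.52 ± 0.37 (SE) was not called (95% interval -1.24 to 0.20, adjusted p = 0.482 by edgeR). Vti1b shares 19.9% of the Arg2 window.

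Ass1, argininosuccinate synthase, which takes citrulline back towards arginine and so feeds the nitric oxide synthases, lies on chromosome 2 (31470270 to 31520670). It had 137 and 205 counts in cKO and 108 and 77 in wild type, or 41.4 and 59.3 CPM in cKO and 41.4 and 34.8 CPM in wild type. The lower cKO value and the higher wild-type value were the same to 3 digits. The log2 fold change of 0.40 ± 0.17 (SE) was as large as that of Nos2, but with an adjusted p of 0.176 by edgeR (95% interval 0.06 to 0.74, unadjusted p = 0.0228) it was not called. Library cKO 2 decided its size: the log2 fold change was 0.11 without it (adjusted p = 0.909) and 0.63 without cKO library 1 (adjusted p = 0.0669).

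The indoleamine dioxygenase genes lie side by side on chromosome 8, 7.72 kb apart, and neither was called. Ido2 (24531892 to 24576414) had 403 and 365 counts in cKO and 336 and 251 in wild type, or 122 and 106 CPM in cKO and 129 and 113 CPM in wild type. Its log2 fold change was -0.10 ± 0.12 (SE, 95% interval -0.33 to 0.14, adjusted p = 0.73 by edgeR). Ido1 (24584133 to 24596952), the better known tryptophan-degrading enzyme, had 107 and 107 counts in cKO and 85 and 52 in wild type, or 32.4 and 30.9 CPM in cKO and 32.6 and 23.5 CPM in wild type. Its log2 fold change was 0.16 ± 0.21 (SE, 95% interval -0.25 to 0.56, adjusted p = 0.751 by edgeR). Groups overlapped at both genes. Per kb, Ido2 stood at 2.25 ± 0.228 in cKO and 2.40 ± 0.214 in wild type, and Ido1 at 1.68 ± 0.0527 in cKO and 1.49 ± 0.340 in wild type (SD, n = 2 each). The flanking testis gene Adam18 had 1.42 in cKO and 1.22 in wild type. Its libraries overlapped those of Ido1 and lay below those of Ido2.

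Acod1, which makes itaconate and is strongly induced by bacterial products, lies on chromosome 14 (103047012 to 103056573). It had 24 and 47 counts in cKO and 44 and 30 in wild type, or 7.26 and 13.6 CPM in cKO and 16.9 and 13.6 CPM in wild type. The cKO libraries differed from each other by more than the group means did. The log2 fold change was -0.55 ± 0.31 (SE, 95% interval -1.16 to 0.07, adjusted p = 0.346 by edgeR), and it was -0.17 without cKO library 1 (adjusted p = 0.877) and -1.07 without cKO library 2 (adjusted p = 0.183).

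Promoter sequence from RefSeq (build GRCm38.p6, 250 bases before to 50 after the start) was matched for 3 of the 9 genes. PRC2 is known to act mostly at promoters rich in CpG, so these are shown with every CpG in capitals. They are Nos1 at chr5:117866589-117866888, Acod1 at chr14:103046762-103047061 and Ass1 at chr2:31470020-31470319, all on the plus strand.
Nos1: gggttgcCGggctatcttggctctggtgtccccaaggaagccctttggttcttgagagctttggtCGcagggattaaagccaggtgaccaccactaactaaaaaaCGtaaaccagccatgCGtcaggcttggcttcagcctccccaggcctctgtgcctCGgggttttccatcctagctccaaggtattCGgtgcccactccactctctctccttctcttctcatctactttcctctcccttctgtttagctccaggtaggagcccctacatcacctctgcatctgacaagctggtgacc
Acod1: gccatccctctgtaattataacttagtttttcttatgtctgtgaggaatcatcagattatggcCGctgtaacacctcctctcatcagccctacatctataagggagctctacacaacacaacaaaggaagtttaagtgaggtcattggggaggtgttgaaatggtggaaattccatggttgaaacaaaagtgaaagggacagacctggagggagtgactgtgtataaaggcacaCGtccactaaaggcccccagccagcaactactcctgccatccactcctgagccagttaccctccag
Ass1: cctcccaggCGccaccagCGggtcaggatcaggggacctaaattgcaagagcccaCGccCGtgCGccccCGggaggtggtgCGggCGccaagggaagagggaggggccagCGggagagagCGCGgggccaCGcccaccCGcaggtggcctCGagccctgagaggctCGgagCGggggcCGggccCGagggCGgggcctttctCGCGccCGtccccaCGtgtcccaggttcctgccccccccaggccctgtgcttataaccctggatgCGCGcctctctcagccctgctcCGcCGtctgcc
The Ass1 promoter holds 27 CpG and is 74.0% G and C, at the 85.2nd percentile of CpG number among 32851 promoters of the same length. The Nos1 promoter holds 6 CpG (45.7th percentile) and that of Acod1 holds 2 (18.7th percentile), against a median of 7 over all promoters. The Ass1 window had 0.893 CPM per kb in cKO and 0.676 in wild type, that of Nos1 1.31 in cKO and 1.34 in wild type. For Acod1 these were 0.67 in cKO and 0.978 in wild type. These levels cover whole gene windows while the CpG numbers cover the promoter alone, for 3 of the 9 genes. A link between level and CpG number was not tested. The 3 promoters were searched on both strands for TATAAA, for CACGTG, for TTCNNNGAA and for longer words of NF-κB and of interferon regulatory factors. No matches overlapped. TATAAA was found in Acod1, its first base 28 bases before the start, and in 13.6% of all promoters. CACGTG was found in Ass1, 36 bases before the start, and in 7.15% of all promoters. TTCNNNGAA, which 8.3% of all promoters hold, and the longer words were not found in these windows. The NF-κB words were 2 fixed sequences, held by 0.155% and 0.158% of all promoters. The word of interferon regulatory factors was held by 3.44%. With words this rare, absence from 3 promoters does not show that sites for these factors are lacking.

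Some genes beside the members were called where the members were not, or changed by more. Next to Nos2, Lgals9, which encodes galectin-9, starts 2.75 kb beyond the gene and carried little of the mark, with 9 and 6 counts in cKO and 12 and 13 in wild type (log2 fold change -1.22, adjusted p = 0.251 by edgeR). Beyond it, 53.2 kb from Nos2, Ksr1, a scaffold of the Ras to MAP kinase pathway that was singled out after its values were seen, had 687 and 668 counts in cKO and 307 and 250 in wild type. These are 208 and 193 CPM in cKO and 118 and 113 CPM in wild type, and Ksr1 gained by 0.79 ± 0.11 on the log2 scale (SE, adjusted p = 1.46e-09), in a window of which 12.5% is shared with Gm11201. On the other side of Nos2, 76.9 kb away, Lyrm9 had 0.196 CPM per kb in cKO and 0.178 in wild type. Per kb, Lgals9 had 0.0797 CPM in cKO, at the 27.7th percentile of all windows, and 0.187 in wild type, at the 46.9th. Ksr1 stood at the 82.6th percentile in cKO and the 73.3rd in wild type. Of 9 other tested windows within 500 kb of Nos2, a distance also chosen afterwards, Ksr1 was the 1 gained and 0 were lost.

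Ksr2, the related scaffold gene, is the neighbour of Nos1, 98.8 kb away, and lost the mark. It had 337 and 406 counts in cKO and 602 and 495 in wild type, or 102 and 117 CPM in cKO and 231 and 224 CPM in wild type. The log2 fold change was -1.05 ± 0.11 (SE, adjusted p = 1.18e-16 by edgeR). Between it and Fbxo21, at 0.402 CPM per kb in cKO and 0.366 in wild type, Nos1 showed no called change.

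**Figure D4:**
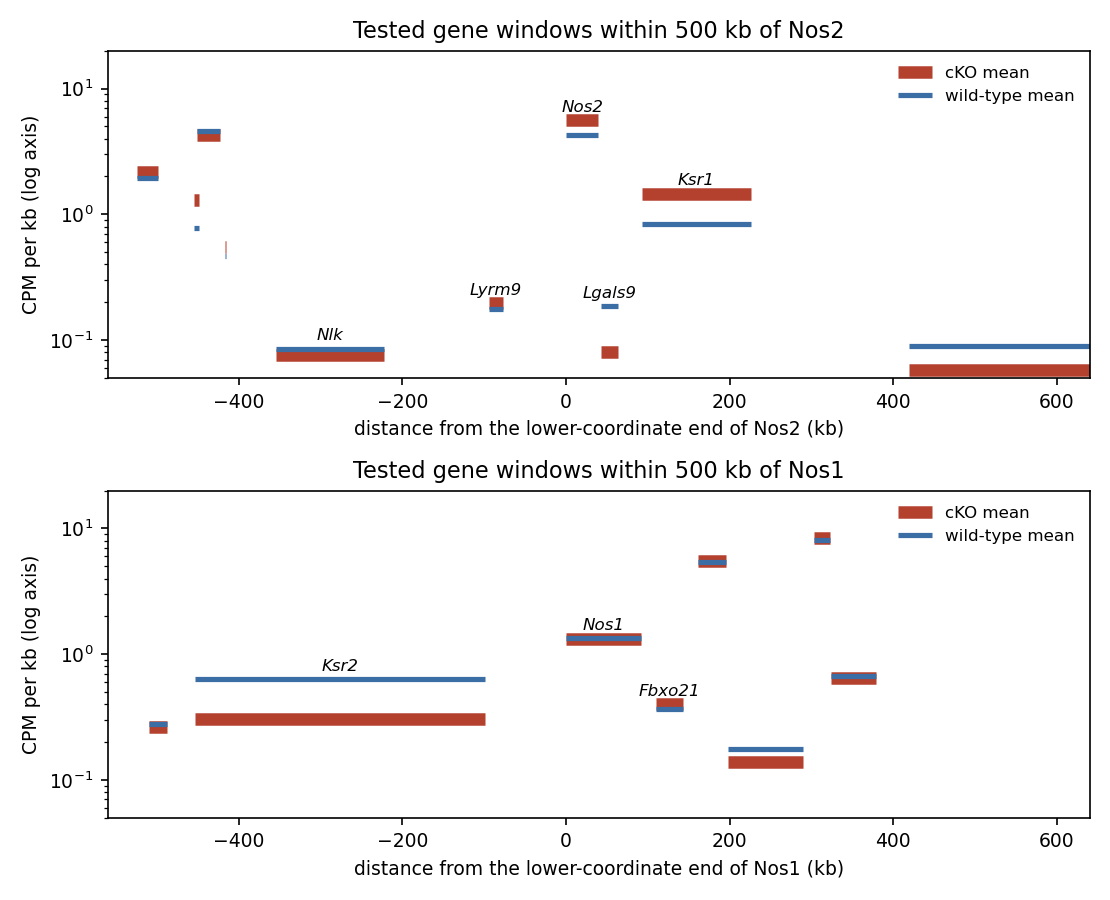
H3K27me3 in CPM per kb (vertical log axis) at tested gene windows within 500 kb of Nos2 (upper panel) and Nos1 (lower panel), placed by distance in kb from the lower-coordinate end of each gene, with thick bars for the cKO mean and thin bars for the wild-type mean of 2 libraries. Ksr1 lies higher in cKO (1.46) than in wild type (0.839), and Ksr2 lower in cKO (0.305) than in wild type (0.631).

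At 3 other members the nearest gene on 1 side was called. At Arg1 that was the farther neighbour, and Med23, 1.68 kb from Arg1 on the other side, was not called (log2 fold change -0.04, adjusted p = 0.97 by edgeR). Atg9b, an autophagy gene beside Nos3, had 35.7 CPM in cKO and 22.9 in wild type (log2 fold change 0.65 ± 0.21, adjusted p = 0.0381), but 77.0% of its window is shared with Nos3 and Abcb8. The Atg9b call was lost in 8 of 14 alternatives, namely without cKO library 1 (adjusted p = 0.0664), cKO library 2 (0.417) or wild-type library 1 (0.366), with TMM on the top decile (0.18), library totals alone (0.0761), thinned counts (0.0711) or upper-quartile factors (0.105), and by DESeq2 (0.323). 4933432I03Rik, a lncRNA gene 13.2 kb from Acod1, had 35.2 CPM in cKO and 55.8 in wild type (-0.67 ± 0.17, adjusted p = 0.00418). Its call was lost in 4 of 14 alternatives, on leaving out cKO library 2 (adjusted p = 0.354) or wild-type library 2 (0.0518), with scaling to housekeeping genes (0.0922) and by DESeq2 (0.133). Akap7, a kinase anchor gene 242 kb from Arg1, had 14.5 CPM in cKO and 26.4 in wild type (-0.86 ± 0.25, adjusted p = 0.0151). Its call was lost in 7 of 14 alternatives, on leaving out any one of the 4 libraries (adjusted p = 0.0598 to 0.122), with scaling to housekeeping genes (0.078) or thinned counts (0.0666), and by DESeq2 (0.183). Kcnh2, a potassium channel gene 13.1 kb from Nos3, carried more of the mark than any member, at 8.75 CPM per kb in cKO and 8.77 in wild type, and was not called (adjusted p = 0.974).

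Within 500 kb of any of the 9 genes, 74 other windows were tested, and 10 of them (13.5%) were called, with 6 gained and 4 lost, against 6.42% of all genes tested. This is a description, since the distance was chosen after the values were seen. Beside the genes above, these were Gphn and Fam71d near Arg2, Smarcd3 near Nos3, and Adam3 and Zmat4 near the indoleamine dioxygenases. Gphn, which encodes the synaptic scaffold gephyrin, 446 kb from Arg2, had 0.501 CPM per kb in cKO and 0.141 in wild type, and its gain of 1.82 on the log2 scale (adjusted p = 2.92e-35 by edgeR) held in all 14 alternatives. Fam71d, 396 kb from Arg2, had 1.15 CPM per kb in cKO and 0.651 in wild type (0.82, adjusted p = 2.55e-04), a call lost without cKO library 2 (adjusted p = 0.165). Smarcd3, a subunit gene of the SWI/SNF chromatin remodeller 208 kb from Nos3, had 5.23 CPM per kb in cKO and 3.53 in wild type (0.56, adjusted p = 0.0042). Its call was lost in 4 of 14 alternatives, without cKO library 1 (adjusted p = 0.139), with TMM on the top decile (0.0707) or thinned counts (0.136), and by DESeq2 (0.095). Adam3, a testis gene 101 kb from Ido2, had 0.930 CPM per kb in cKO and 0.622 in wild type (0.58, adjusted p = 0.024), and its call was lost in 9 of 14 alternatives, among them the omission of any one library (adjusted p = 0.0699 to 0.32). Zmat4, 469 kb from Ido2, was lower, at 0.463 CPM per kb in cKO and 0.636 in wild type (-0.46, adjusted p = 3.94e-04), a call lost without cKO library 1 (adjusted p = 0.0979) and with scaling to housekeeping genes (0.285). The deposited windows of Gphn, Smarcd3 and Zmat4 are shorter than the genes in the reference table, so their ends are uncertain.

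The patterns closest to that of Nos2 over the 4 libraries, by Euclidean distance in log2 CPM per kb, were those of Klhl12 (distance 0.112), Zfp469 (0.154) and Enpp7 (0.168). Klhl12, for example, had 5.63 and 5.31 CPM per kb in cKO and 4.47 and 4.23 in wild type. This is a description over 4 libraries, with no test.

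The wider pathways were read from 5 lists, with 88 genes of which 67 were tested. Of these 5 gained and 1 lost H3K27me3, where 4.46% of all genes tested gained and 1.96% lost it. The median log2 fold change was -0.01, the same as over all genes tested. At an unadjusted p below 0.05, 6 were higher and 6 lower, against 10.3% and 8.26% of all genes tested. By DESeq2, 3 gained and 0 lost. Each list held 0 to 2 called genes, and each of the 6 changed by more than Nos2 on the log2 scale.

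In the list of arginine supply and catabolism, 1 of 16 tested genes gained and 0 lost by edgeR, and 1 gained and 2 fell at an unadjusted p below 0.05. The gained gene was Gatm, whose enzyme takes arginine into creatine synthesis. It had 246 and 246 counts in cKO and 70 and 63 in wild type, or 74.4 and 71.2 CPM in cKO and 26.8 and 28.5 CPM in wild type, and gained by 1.39 ± 0.17 on the log2 scale (SE, adjusted p = 1.82e-12). Amd1, of polyamine synthesis, had 2 and 6 counts in cKO and 10 and 14 in wild type (-2.05 ± 0.69, adjusted p = 0.0504), just outside the threshold. It was called in 3 of 12 alternatives, among them library totals alone (adjusted p = 0.0464) and DESeq2 size factors in the edgeR fit (0.0491). In the other 9 it was not called, for example with no count filter (0.0751) or scaling to housekeeping genes (0.0781). On leaving out single libraries its log2 fold change ran from -2.96 (without cKO library 2) to -1.51 (without cKO library 1).

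Of 14 tested genes of nitric oxide cofactors, partners and targets, 2 gained and 0 lost by edgeR, while 3 rose and 2 fell at an unadjusted p below 0.05 and DESeq2 called 1. Nos1ap, an adaptor that binds the neuronal synthase, had 1155 and 1220 counts in cKO and 492 and 416 in wild type, or 349 and 353 CPM in cKO and 189 and 188 CPM in wild type. It gained by 0.90 ± 0.10 on the log2 scale (SE, adjusted p = 6.65e-15). Cav1, the caveolin that holds the endothelial synthase inactive, had 72 and 56 counts in cKO and 21 and 20 in wild type (1.15 ± 0.31, adjusted p = 0.00768), a call that was lost on leaving out cKO library 1 (0.92, adjusted p = 0.192) or wild-type library 1 (1.06, adjusted p = 0.0716). The synthases these partners bind, Nos1 and Nos3, were not called.

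Of 14 tested genes of the tryptophan and kynurenine pathway, 2 gained and 0 lost by edgeR, and 1 was lower at an unadjusted p below 0.05. Ahr encodes the aryl hydrocarbon receptor, which kynurenine activates. Its window had 324 and 395 counts in cKO and 65 and 55 in wild type, or 98.0 and 114 CPM in cKO against 24.9 and 24.9 CPM in wild type. The gain of 2.09 ± 0.16 on the log2 scale (SE, adjusted p = 1.12e-27) was the largest among these lists. Kyat3, which makes kynurenic acid from kynurenine, had 86 and 101 counts in cKO and 27 and 33 in wild type (1.14 ± 0.26, adjusted p = 6.74e-04), a call that was lost on leaving out wild-type library 1 (0.88, adjusted p = 0.0607) and that DESeq2 did not make (adjusted p = 0.0511).

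In the itaconate and citrate cycle list, 1 of 11 tested genes was lost and 0 gained by edgeR, 0 higher at an unadjusted p below 0.05, and 0 called by DESeq2. The lost gene was Aco1, the cytosolic aconitase, with 22 and 19 counts in cKO and 36 and 27 in wild type (-1.10 ± 0.37, adjusted p = 0.0492). This call was at the threshold and was lost in 8 of 12 alternatives, among them the omission of any one library (adjusted p = 0.101 to 0.333). Of the inducers of these enzymes, such as Irf1 and Ifngr1, 0 of 12 tested were called by edgeR, 0 at an unadjusted p below 0.05 and 0 by DESeq2. The lowest p-value in that list was that of Nfkb1, with 51 and 21 counts in cKO and 40 and 33 in wild type (log2 fold change -0.50, adjusted p = 0.411 by edgeR). By their median the inducers stood low, at 0.119 CPM per kb in cKO and 0.156 in wild type, but not all of them did. Il13 had 1.62 CPM per kb in cKO and 1.53 in wild type. Il4 had 1.07 in cKO and 0.784 in wild type, and Ifng 0.571 in cKO and 0.672 in wild type. For the 9 effector enzymes the median was 1.31 CPM per kb in cKO and 1.33 in wild type.

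**Figure D5:**
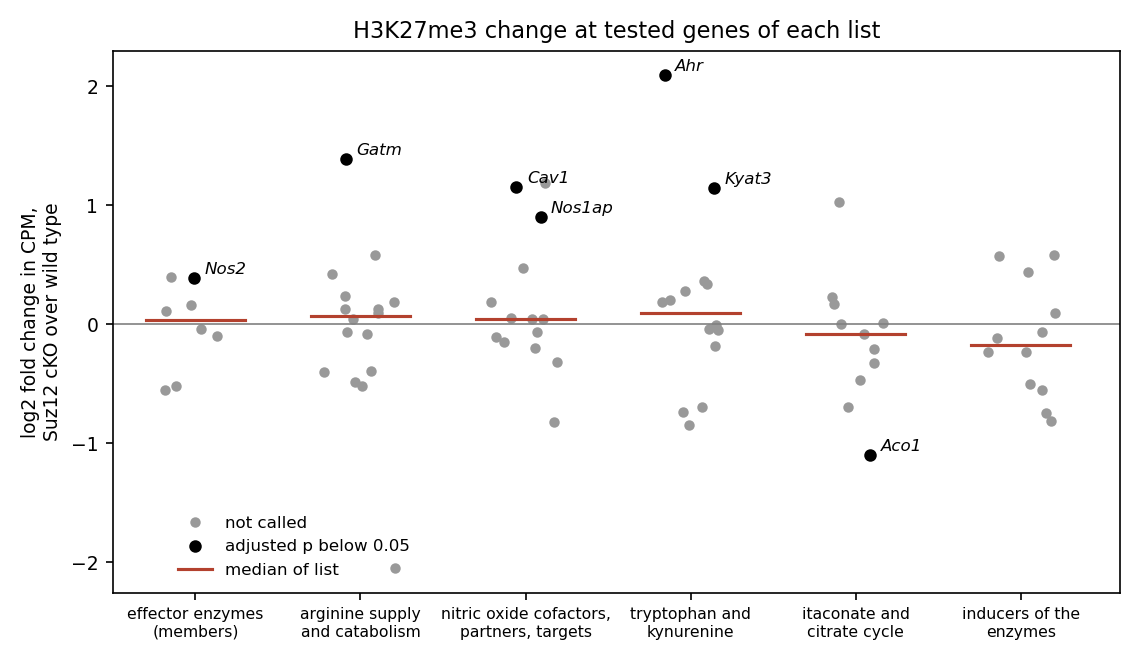
Log2 fold change in CPM, Suz12 cKO over wild type (vertical axis), for each tested gene of the effector enzymes and of the 5 pathway lists, with black dots for genes at an adjusted p below 0.05 and red lines for list medians. The list medians lie between -0.17 and 0.09, and the called genes run from -1.10 at Aco1 to 2.09 at Ahr.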

How the data were processed

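H3K27me3 was profiled by Cut&Tag from 100000 cells per library with 0.5 µg of antibody and paired reads of 36 bp, per the labels. The authors deposited whole-number read counts for each Entrez gene window, made with featureCounts on build mm10 per the submitters' processing notes. The aligner, duplicate handling and counting settings were not given in the sources used here. Window lengths equal the reference gene plus 6000 bp for 11525 genes, so windows were read as the gene with 3 kb on each side. Symbols and positions came from the GRCm38.p6 RefSeq table, which matched 25204 IDs. Overlaps between windows were computed from these positions.

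Genotypes were compared over all genes with edgeR 4.0.16 under R 4.3.3 (filterByExpr, TMM, glmQLFit, glmQLFTest, genotype as the only term). The filter left 16752 genes and removed 10343. Calls are Benjamini-Hochberg adjusted p below 0.05 over all genes tested. Standard errors are the log2 fold change divided by the square root of F, and 95% intervals use the fit's degrees of freedom. DESeq2 1.42.0 was an alternative. The fit was tested on simulated data. The labels call the libraries biological replicates; chi-square over degrees of freedom was 1.79 between the cKO libraries and 1.94 between the wild-type ones, so neither couple was 1 library deposited again.

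The 9 genes and the lists were chosen with earlier results of these data known. Genes named are the members, called genes of the pathway lists and otherwise the 2 of lowest p, the nearest gene on each side of a member, and the 3 closest patterns to the highest member; 1 gene that this rule names is not reported here. Siglec5, of the alveolar macrophage list, was not matched and is not analysed here.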

Additional observations from a re-analysis of the deposited data

How the results depend on the processing

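Without each library in turn, genes called numbered 453 to 1012 (361 to 772 gained, 92 to 240 lost), and members called 0 to 1. In these fits the lone library of a genotype is assumed to vary like the others. Pathway calls then ran from 1 to 2 genes for arginine, 1 to 2 for nitric oxide, 1 to 2 for tryptophan, 0 to 0 for itaconate and 4 to 6 in all. DESeq2's Wald test called 376 genes (324 gained, 52 lost) and 3 pathway genes, with 1 for nitric oxide, 1 for tryptophan and 0 for itaconate. With upper-quartile factors gains numbered 494 and losses 519, with 4 nitric oxide genes. Library totals alone gave 55.7% gains among calls, against 69.4% with TMM, and 4 nitric oxide and 2 arginine genes. DESeq2 size factors in the edgeR fit gave 2 arginine genes. Scaling to housekeeping genes, whose windows hold few reads, shifted the median of all genes by 0.14 and gave 88.9% gains, 101 losses and 0 itaconate genes. TMM on the top decile, chosen after seeing the data, gave 367 gains, 46.9% of its calls, and 0 members. Thinned counts gave 179 losses. Itaconate genes were 0 with the replicate block, thinned counts and no filter. They were also 0 with a mean of at least 50 counts, but that filter removed Aco1 (22 and 19 counts in cKO, 36 and 27 in wild type) before testing. The cause of these shifts was not tested.

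Signs that turned lay at members near 0 and one inducer: with housekeeping scaling Ido2 was 0.04 and Nos1 0.11, and with thinned counts Nos1 was 0.04. Without each library in turn, Ido2 ran from -0.20 to 0.00, Ido1 from -0.04 to 0.42, Nos1 from -0.11 to 0.05 and Nfkb1 from -1.31 to 0.03. Nos2 ran from 0.29 to 0.53 over the alternatives. With the length not shared with other windows, Ido2 and Nos3 exchanged places, so that 2 places in the order of levels moved. Library totals left the order unchanged.

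The replicate numbers did not pair the libraries (correlation of same-numbered deviations 0.0084). With a replicate block 1039 genes were called, Nos2 stayed called (adjusted p = 0.00655) and Aco1 was not (adjusted p = 0.0581). At the depth of these libraries, differences at genes with few counts, such as the arginases and Acod1, were not detectable unless large.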
